A study of Mus musculus with 9 samples.

Results

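The Ikaros family comprises 5 mouse genes of zinc finger transcription factors, Ikzf1 (Ikaros), Ikzf2 (Helios), Ikzf3 (Aiolos), Ikzf4 (Eos) and Ikzf5 (Pegasus). They were found by symbol among the 43629 genes of the deposited count table, and all 5 had a row. The cells were Eµ-Myc lymphoma cells of clone 4242, a mouse B-cell lymphoma line in which a Myc transgene is driven by the immunoglobulin heavy chain enhancer. Cultures received RG6146 at 2.5 µM, JQ1 at 1 µM or the solvent DMSO, each for 2 h and with 3 libraries per group, and 3′ ends of polyadenylated RNA were sequenced. RG6146 and JQ1 are small molecules that block the bromodomains of the BET proteins, readers of acetylated histones. Every group carried the transgene and came from the same clone, so that p-values reflect variation among cultures of 1 lymphoma clone.

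Ikaros proteins bind DNA through zinc fingers near the amino terminus and pair with each other through a second set of zinc fingers near the carboxyl terminus. Ikaros and Aiolos act in B cell development, in large part by recruiting the NuRD complex, which remodels nucleosomes and removes acetyl groups from histones. Helios and Eos are best known in regulatory T cells, and Pegasus is expressed in many tissues. In human cells, drugs of the thalidomide type direct the ubiquitin ligase adaptor cereblon to Ikaros and Aiolos, which are then degraded.

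Ikzf1 fell after both compounds, Ikzf3 fell by less, and Ikzf5 passed the test after neither. Ikzf2 and Ikzf4 were close to the detection limit in every group. To show the start regions of the member with the largest fall and of the member without a called change, the 300-base windows that RefSeq gives for Ikzf1 and Ikzf5 on GRCm38.p6 are printed here 5′ to 3′ with CpG dinucleotides in capitals. They were chosen after the values were seen, and each runs from 250 bases before to 50 bases after an annotated start. The first Ikzf1 window is chr11:11685675-11685974 on the plus strand, the second is chr11:11689927-11690226 on the plus strand, and the Ikzf5 window is chr7:131410429-131410728 on the minus strand.
Ikzf1 window 1: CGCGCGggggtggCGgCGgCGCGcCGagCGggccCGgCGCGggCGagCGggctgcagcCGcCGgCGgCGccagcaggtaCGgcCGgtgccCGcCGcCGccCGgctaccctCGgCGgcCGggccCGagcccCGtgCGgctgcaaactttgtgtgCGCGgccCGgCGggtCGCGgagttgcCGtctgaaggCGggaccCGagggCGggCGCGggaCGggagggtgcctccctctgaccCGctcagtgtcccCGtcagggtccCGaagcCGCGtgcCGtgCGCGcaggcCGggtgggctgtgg
Ikzf1 window 2: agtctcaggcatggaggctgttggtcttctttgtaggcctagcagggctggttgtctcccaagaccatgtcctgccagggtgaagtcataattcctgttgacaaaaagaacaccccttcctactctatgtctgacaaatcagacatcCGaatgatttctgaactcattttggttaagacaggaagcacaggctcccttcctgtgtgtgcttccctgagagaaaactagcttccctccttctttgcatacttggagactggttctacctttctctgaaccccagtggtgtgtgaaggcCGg
Ikzf5 window: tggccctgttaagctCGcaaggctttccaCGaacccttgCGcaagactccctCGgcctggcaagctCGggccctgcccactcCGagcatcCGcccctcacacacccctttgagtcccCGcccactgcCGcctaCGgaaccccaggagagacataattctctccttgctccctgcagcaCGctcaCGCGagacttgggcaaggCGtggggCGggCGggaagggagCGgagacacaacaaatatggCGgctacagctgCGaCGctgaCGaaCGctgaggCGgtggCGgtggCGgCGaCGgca
The first Ikzf1 window held 52 CpG dinucleotides and 81.3% G and C, while the second held 2 CpG and 49.0% G and C. The Ikzf5 window held 27 CpG and 65.7% G and C. Over all 32817 windows of the same length the medians were 7 CpG and 52.7%. The Ikaros motif TGGGAA, searched as a full match on both strands, occurred in 25.6% of all windows and in none of these 3. Shorter forms of it were not searched. The E-box CACGTG occurred in 7.15% of all windows and in none of these 3. On mm10, the build of the files, the annotated start of Ikzf5 lies 80 bases from that of Acadsb, a neighbour on the opposite strand, so the Ikzf5 window also holds the start of Acadsb.

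The libraries held 3410161 to 5031717 gene counts. Of 11002 genes with enough counts to test, the edgeR quasi-likelihood test called 26.0% after RG6146 and 29.0% after JQ1 at an adjusted p below 0.05. RG6146 against DMSO gave 12.5% of genes higher and 13.5% lower, and JQ1 against DMSO gave 13.6% higher and 15.4% lower. The 95% interval of a log2 fold change reached 0.351 to either side for the median gene. Library size scaling without TMM put the median gene at -0.10 after RG6146 and -0.13 after JQ1, and then 29.9% of the calls after RG6146 were higher instead of 48.0%, and 27.3% of those after JQ1 instead of 46.9%. All 7 B cell markers listed could be tested, with sums of 519 to 630 CPM (counts scaled to a common library total) under RG6146, 533 to 590 CPM under JQ1 and 617 to 762 CPM under DMSO (exact two-sided permutation p = 0.2 for RG6146 and 0.1 for JQ1, the smallest possible). Marker sums, here and below, carry no TMM factors. Those were 0.958 to 1.01 under RG6146, 0.948 to 0.977 under JQ1 and 1.04 to 1.07 under DMSO. TMM scaling would therefore raise the treated sums relative to DMSO, and the sums were not tested with it. Pax5, a defining transcription factor of the B lineage and 1 of the 7, had only 17 counts over the 3 libraries under RG6146, 24 under JQ1 and 38 under DMSO.

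Ikzf1 (ENSMUSG00000018654) lies on chromosome 11 from 11685003 to 11772926 on the plus strand and encodes Ikaros, the founding member of the family. Its level was 78.8, 72.9 and 74.7 CPM in the RG6146 libraries, 75.5, 76.6 and 72.1 CPM in the JQ1 libraries, and 223, 248 and 202 CPM in the DMSO libraries, all scaled by TMM factors. All 6 treated libraries lay below all 3 DMSO libraries, and the treated groups overlapped each other. The means were 75.5 ± 3.06 CPM under RG6146, 74.7 ± 2.31 CPM under JQ1 and 224 ± 23.1 CPM under DMSO (SD, n = 3 each).

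After RG6146, Ikzf1 was 2.97-fold lower than under DMSO, a log2 fold change of -1.57 ± 0.0855 (SE) with a 95% interval of -1.75 to -1.39 (adjusted p = 7.17e-10). After JQ1 the log2 fold change was -1.59 ± 0.0855 with an interval of -1.77 to -1.41 (adjusted p = 5.92e-10). Only 254 tested genes, or 2.31%, had a lower log2 fold change after RG6146, and 251, or 2.28%, after JQ1. In bulk RNA, fewer cells that express a gene and less of its RNA per cell cannot be told apart. Both comparisons use the same DMSO libraries.

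**Figure D1:**
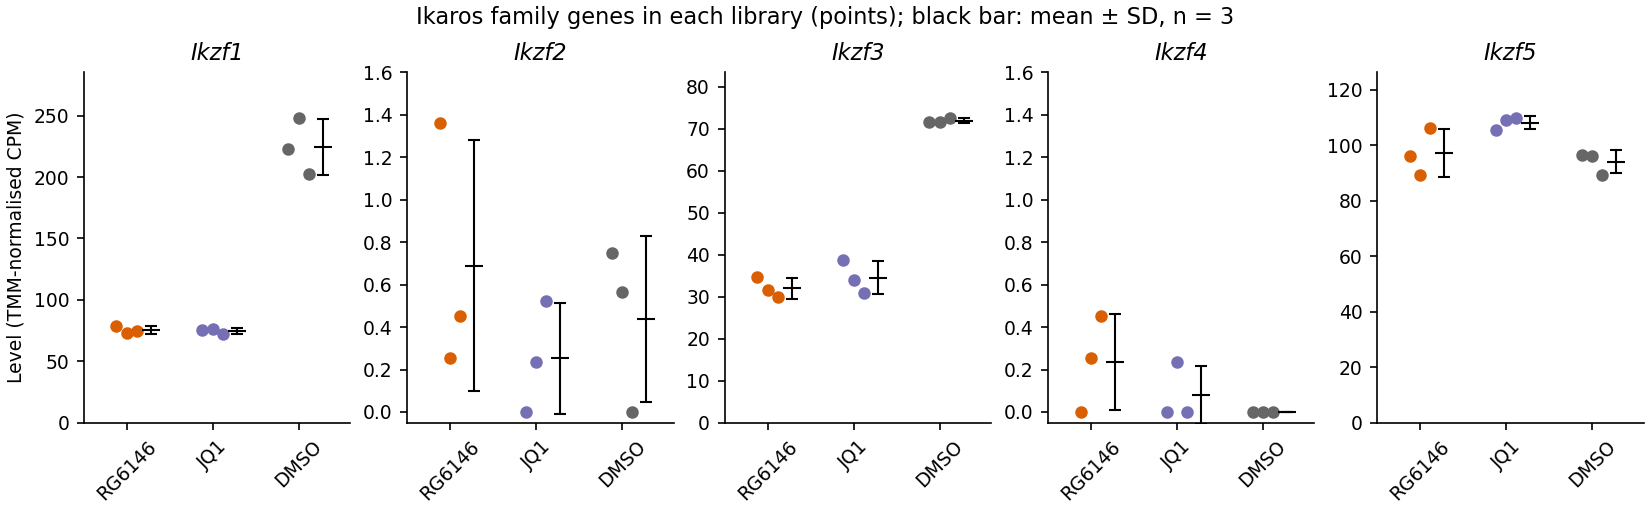
Level of each Ikaros family gene in CPM (TMM-normalised) in every library, with RG6146, JQ1 and DMSO from left to right; points are libraries and the black bars give the mean ± SD of 3 libraries. Ikzf1 and Ikzf3 lie lower in all 6 treated libraries than in all 3 DMSO libraries, Ikzf5 stays near 100 CPM in all groups, and the axes of Ikzf2 and Ikzf4 end at 1.6 CPM.

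Markers of other cell types were measured in the same libraries. Listed myeloid markers, of which 7 of 11 could be tested, summed to 80.2, 113 and 109 CPM under RG6146, to 75.7, 251 and 55.5 CPM under JQ1, and to 149, 703 and 346 CPM under DMSO (exact two-sided permutation p = 0.1 for RG6146, the smallest possible, and 0.2 for JQ1). S100a8, a calcium-binding protein gene of neutrophils, averaged 29.5 CPM under RG6146, 38.7 CPM under JQ1 and 184 CPM under DMSO, the largest part of the DMSO sum, and it was not called (adjusted p = 0.0952 after RG6146 and 0.128 after JQ1). Neither were its partner S100a9 and the granule enzyme gene Mpo. Csf1r, the macrophage growth factor receptor gene, was the only myeloid marker called, and it was higher after RG6146 (0.48, adjusted p = 0.0249) and after JQ1 (0.59, adjusted p = 0.00713). Without DMSO replicate 2, the library with the highest myeloid sum, the log2 fold change of Ikzf1 was -1.49 after RG6146 and -1.51 after JQ1.

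T and NK cell markers, which come from lineages that also use Ikaros proteins, summed to 5.79 to 7.81 CPM under RG6146, 3.03 to 6.72 CPM under JQ1 and 8.69 to 12.9 CPM under DMSO. Only Cd2 of the 12 could be tested, Ncr1 had 0 counts in every library, and the exact permutation p was 0.1 for each compound. Cd2 had the highest mean of the 12, with 4.788 CPM under RG6146, 2.997 CPM under JQ1 and 7.696 CPM under DMSO. It was called lower after JQ1 (-1.33, adjusted p = 0.00254) and not called after RG6146 (-0.67, adjusted p = 0.0856). The listed Cd3, Cd4, Cd8 and Trbc genes had at most 2 counts in any group. The difference in the sums lay mostly in Cd2, and a change in T or NK cells was not tested. Stromal and endothelial markers, of which Vim and Pecam1 could be tested of 8, summed to 104 to 111 CPM under RG6146, 98.4 to 101 CPM under JQ1 and 132 to 143 CPM under DMSO (exact permutation p = 0.1 for each compound). Vim, an intermediate filament gene and most of this sum, was not called (-0.01 after RG6146 and -0.08 after JQ1). Pecam1, an adhesion molecule gene of endothelial and blood cells, fell by 1.69 after RG6146 (adjusted p = 7.60e-05) and by 1.75 after JQ1 (adjusted p = 4.92e-05), with means of 8.53 CPM under RG6146, 8.11 CPM under JQ1 and 27.8 CPM under DMSO. None of the 7 erythroid markers had enough counts to test, and they summed to at most 19.2 CPM in any library. The single markers were named after their values were seen, and the part of these markers in the fall of Ikzf1 and Ikzf3 was not tested.

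Ikzf3 (ENSMUSG00000018168) lies on the same chromosome from 98464902 to 98546031 on the minus strand and encodes Aiolos, which acts with Ikaros in maturing B cells. It had 34.8, 31.5 and 29.9 CPM under RG6146, 38.8, 33.9 and 31.0 CPM under JQ1, and 71.6, 71.7 and 72.6 CPM under DMSO. Again no treated library reached the lowest DMSO library, and the RG6146 and JQ1 libraries overlapped. Means were 32.1 ± 2.48 CPM under RG6146, 34.6 ± 3.94 CPM under JQ1 and 72.0 ± 0.575 CPM under DMSO (SD, n = 3 each).

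The log2 fold change of Ikzf3 was -1.17 ± 0.106 after RG6146, 2.24-fold lower, with a 95% interval of -1.39 to -0.94 (adjusted p = 3.92e-07). After JQ1 it was -1.06 ± 0.106, 2.08-fold lower, with an interval of -1.28 to -0.83 (adjusted p = 1.03e-06). A lower log2 fold change than that of Ikzf3 was found for 4.58% of tested genes after RG6146 and for 5.66% after JQ1. Ikzf1 and Ikzf3 were therefore the 2 of 3 tested members called lower after each compound, beside 13.5% of all tested genes after RG6146 and 15.4% after JQ1. Both had at least 119 counts in every library, far above the filter.

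Ikzf5 (ENSMUSG00000040167) lies on chromosome 7 from 131388652 to 131410521 on the minus strand and encodes Pegasus, the most divergent family member. Its level was 96.3, 89.2 and 106 CPM under RG6146, 106, 109 and 110 CPM under JQ1, and 96.7, 96.3 and 89.3 CPM under DMSO. The RG6146 libraries overlapped the DMSO libraries, while all 3 JQ1 libraries lay above all 3 DMSO libraries. The means were 97.3 ± 8.52 CPM under RG6146, 108 ± 2.25 CPM under JQ1 and 94.1 ± 4.14 CPM under DMSO (SD, n = 3 each).

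Against DMSO, Ikzf5 had a log2 fold change of 0.05 after RG6146 with a 95% interval of -0.13 to 0.23 (adjusted p = 0.733). After JQ1 the value was 0.20 ± 0.085 with an interval of 0.02 to 0.38, and it did not pass the edgeR test (adjusted p = 0.0854). These intervals leave room for a rise of up to 0.38 on the log2 scale after JQ1, and both lie above the intervals of Ikzf1 and Ikzf3.

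Ikzf2 (ENSMUSG00000025997, chromosome 1, 69531214 to 69687245, minus strand), which encodes Helios, had 6, 1 and 2 counts in the RG6146 libraries, 0, 1 and 2 counts in the JQ1 libraries, and 4, 2 and 0 counts in the DMSO libraries. Ikzf4 (ENSMUSG00000002578, chromosome 10, 128630843 to 128645991, minus strand), which encodes Eos, had 0, 1 and 2 counts in the RG6146 libraries, 0, 1 and 0 counts in the JQ1 libraries, and 0 counts in all 3 DMSO libraries. Neither passed the filter on low counts, and no fold change is given for them. A sum of 0 over the DMSO libraries allows a level of up to 0.229 CPM, the level of 3 counts, where this limit covers counting error only. A change of either gene was not detectable at this depth.

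The direct comparison of RG6146 with JQ1 was made at different doses, 2.5 µM and 1 µM, and called 1 of 11002 genes, or 0.00909%, the non-member Gm12693, with 425 genes at an unadjusted p below 0.05. None of the 3 tested members was called. Ikzf1 had a log2 difference of 0.01 with a 95% interval of -0.17 to 0.20, Ikzf3 of -0.11 with -0.34 to 0.12, and Ikzf5 of -0.15 with -0.33 to 0.02 (the lowest adjusted p of the 3 was 0.9993). At this precision a difference between the compounds of up to 0.34 on the log2 scale for Ikzf3 cannot be told from none.

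**Figure D2:**
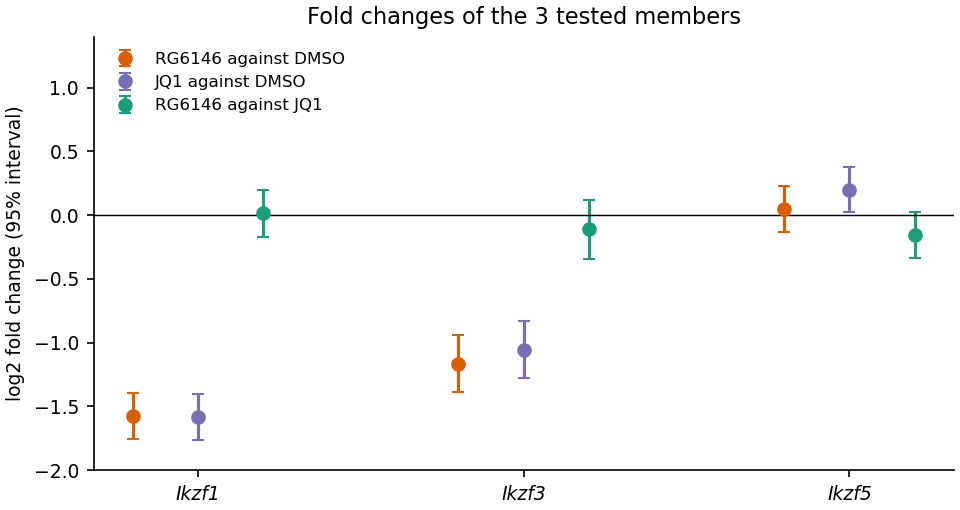
Log2 fold changes (y axis, with 95% intervals) of Ikzf1, Ikzf3 and Ikzf5 for RG6146 against DMSO, JQ1 against DMSO and RG6146 against JQ1. Both compounds gave -1.57 to -1.59 for Ikzf1 and -1.06 to -1.17 for Ikzf3, and all 3 intervals between the compounds include 0.

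Ratios between members within a library do not depend on how libraries are scaled to each other. The ratio of Ikzf1 counts to Ikzf5 counts was 0.819, 0.817 and 0.704 under RG6146, 0.715, 0.703 and 0.657 under JQ1, and 2.31, 2.57 and 2.26 under DMSO. Ikzf1 thus gave fewer counts than Ikzf5 in all 6 treated libraries and more in all 3 DMSO libraries. The mean log2 ratio was -0.36 ± 0.125 under RG6146 and 1.25 ± 0.101 under DMSO, a 3.06-fold shift. Under JQ1 it was -0.53 ± 0.0643, a 3.44-fold shift against DMSO (exact two-sided permutation p = 0.1 for each compound, the smallest that 3 against 3 libraries allow).

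The ratio of Ikzf1 to Ikzf3 counts was 2.26, 2.31 and 2.49 under RG6146, 1.94, 2.25 and 2.32 under JQ1, and 3.12, 3.46 and 2.78 under DMSO. Treated and DMSO libraries did not overlap in this ratio either. The log2 ratio was lower than under DMSO by 0.40 after RG6146 (1.32-fold) and by 0.52 after JQ1 (1.43-fold), again with an exact permutation p of 0.1, the smallest possible. In all 6 treated libraries Ikzf1 was thus lower relative to Ikzf3 than in any DMSO library, in a design too small to reach 0.05.

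**Figure D3:**
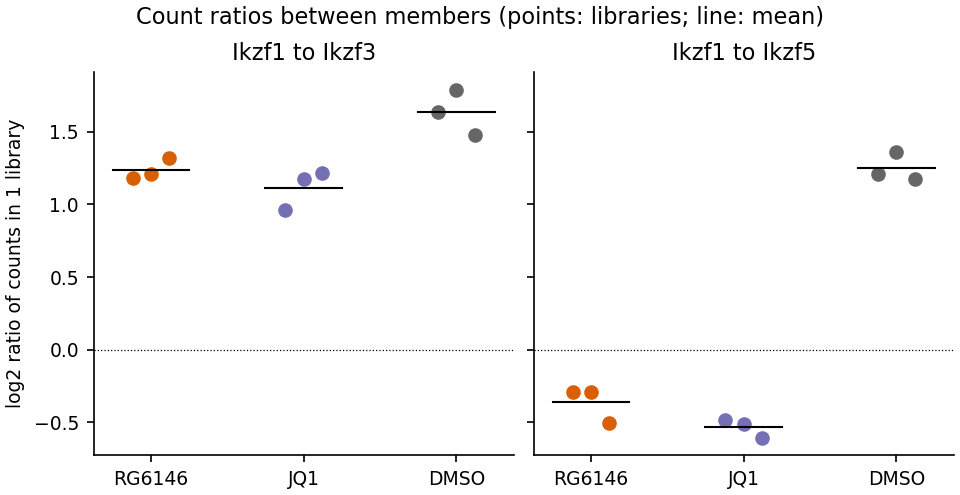
Log2 ratio of counts (y axis) between Ikzf1 and Ikzf3 and between Ikzf1 and Ikzf5 in each library, with RG6146, JQ1 and DMSO from left to right and a line at each group's mean. The Ikzf1 to Ikzf5 ratio lies below 0 in all 6 treated libraries and above 1 in all 3 DMSO libraries.

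Of 20 nearest protein-coding genes, a pair on each side of every member, 8 could be tested, 2 were called lower after RG6146 and 1 after JQ1, and 0 were called higher. Over all tested genes 26.0% were called after RG6146 and 29.0% after JQ1, so these counts are not above the background. Fignl1, an AAA ATPase gene of DNA repair, lies on the minus strand with its 3′ end 14505 bases beyond Ikzf1. It had 359 counts under RG6146, 360 under JQ1 and 484 under DMSO. Its log2 fold change was -0.40 after RG6146 (adjusted p = 0.0340) and -0.39 after JQ1 (adjusted p = 0.0351). It lost its call after RG6146 without RG6146 replicate 2 (-0.30, adjusted p = 0.152) or 3 (-0.42, 0.0617) and without DMSO replicate 1 (-0.32, 0.137) or 2 (-0.35, 0.115). It did so after JQ1 without JQ1 replicate 1 (-0.33, 0.136) or 3 (-0.39, 0.0824) and without DMSO replicate 1 (-0.31, 0.140) or 2 (-0.34, 0.117). Scaling by the ERCC spike-ins, synthetic RNAs added in known amount, ended both calls too, with log2 fold changes of nearly the same size (-0.36, adjusted p = 0.461, after RG6146 and -0.38, adjusted p = 0.402, after JQ1). Under that scaling fewer genes were called in all, 1082 after RG6146 instead of 2863 and 1196 after JQ1 instead of 3188. With the replicate number added to the model (a replicate block), ERCC scaling called 2604 after RG6146 and 2829 after JQ1. ERCC results of single genes and lists, here and below, are without the block.

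The next gene beyond Ikzf1, Ddc, had too few counts to test. At the Ikzf3 locus Mien1 had 0.00 after RG6146 and 0.08 after JQ1, and Ormdl3, a regulator of sphingolipid synthesis, had 0.46 (adjusted p = 0.125) after RG6146 and 0.54 (adjusted p = 0.0637) after JQ1. Ormdl3 therefore lay on the other side of 0 from Ikzf3 and was not called, but without DMSO replicate 3 it was called higher after RG6146 (0.66, adjusted p = 0.0489) and after JQ1 (0.75, adjusted p = 0.0247), and without JQ1 replicate 1 after JQ1 (0.71, adjusted p = 0.031). Near Ikzf4, the receptor gene Erbb3 fell by 1.42 on the log2 scale after RG6146 (adjusted p = 0.00486), with -0.72 after JQ1 (adjusted p = 0.102), while Rps26 and Rab5b were not called. Between the compounds Erbb3 was not called (-0.70, adjusted p = 0.9993), and library size scaling called it lower after JQ1 (-0.85, adjusted p = 0.0483). Next to Ikzf5, Acadsb and 2310057M21Rik were not called.

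The strand setting of the counting is not given in the sources used here, so reads of overlapping genes on opposite strands may not be separated. Gm12000, an antisense gene inside Ikzf1, had 17 counts under RG6146, 15 under JQ1 and 38 under DMSO, beside 966, 960 and 2913 counts of Ikzf1 in the same groups. Its log2 fold change was -1.13 after RG6146 (adjusted p = 0.132) and -1.32 after JQ1 (adjusted p = 0.0790). Pstk, a kinase gene whose 3′ end overlaps that of Ikzf5 on the opposite strand, had 55 counts under RG6146, 43 under JQ1 and 36 under DMSO and was not called. Because reads come from 3′ ends, the counts do not separate Ikaros isoforms that differ by inner exons.

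Partners of Ikaros were called in both directions. Of 14 tested genes of the NuRD complex, 4 rose and 1 fell after RG6146, and 5 rose and 2 fell after JQ1, with median log2 fold changes of 0.13 and 0.12 beside 0.0088 and 0.0046 over all tested genes. Over all tested genes 12.5% were higher and 13.5% lower after RG6146, and 13.6% were higher and 15.4% lower after JQ1. Chd4, the nucleosome remodelling subunit, had 726, 680 and 840 CPM under RG6146, 766, 718 and 791 CPM under JQ1, and 559, 590 and 566 CPM under DMSO. Its treated libraries lay above its DMSO libraries, with log2 fold changes of 0.39 after RG6146 (adjusted p = 9.91e-04) and 0.41 after JQ1 (adjusted p = 6.02e-04).

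Hdac1, a histone deacetylase, rose by 0.39 after RG6146 and 0.47 after JQ1, and the histone chaperone gene Rbbp4 by 0.30 after RG6146 and 0.39 after JQ1. Rbbp7, its close relative, rose by 0.24 after RG6146 and 0.25 after JQ1, and Mta2 was called higher after JQ1 (0.31). Mta3, a scaffold subunit known from germinal centre B cells, fell by 1.35 after RG6146 (adjusted p = 0.00812) and by 1.41 after JQ1 (adjusted p = 0.00579), but it passed the count filter only through the DMSO libraries, and DESeq2 did not call it (adjusted p = 0.0722 after RG6146 and 0.0552 after JQ1). Mbd3 was called lower after JQ1 (-0.33). Mta2 lost this call without JQ1 replicate 3 (0.30, adjusted p = 0.0595) or DMSO replicate 1 (0.25, 0.0927) and with DESeq2 (0.32, 0.0731), and it was called after RG6146 without DMSO replicate 3 (0.33, 0.0324). Mbd3 lost its call without JQ1 replicate 2 or 3, without DMSO replicate 2 or 3 and with DESeq2 (highest adjusted p = 0.123), and library size scaling and the 10 CPM minimum called it after RG6146 (-0.37, adjusted p = 0.0163, and -0.29, adjusted p = 0.0481). Rbbp7 lost its call after RG6146 without RG6146 replicate 3 or DMSO replicate 1 and after JQ1 without DMSO replicate 1 (highest adjusted p = 0.0858). Neither Mta2 nor Mbd3 was called between the compounds. Rbbp7, Mta2 and Mbd3 were named after their values were seen. With ERCC scaling and no replicate block, 0 NuRD genes were called higher after either compound. The log2 fold changes stayed about as large, for Chd4 0.43 after RG6146 (adjusted p = 0.285) and 0.40 after JQ1 (adjusted p = 0.311). Library size scaling without TMM called 3 NuRD genes higher and 4 lower after JQ1. Rbbp7 (0.115, adjusted p = 0.253) and Mta2 (0.18, adjusted p = 0.175) then lost their calls after JQ1.

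Among 9 genes of the SIN3, CtBP and other corepressors, 2 rose and 0 fell after each compound, with medians of 0.12 after RG6146 and 0.20 after JQ1. They were Ctbp1 (0.26 after RG6146 and 0.27 after JQ1) and Rcor1 (0.28 and 0.30). Higher calls made up 12.5% of all tested genes after RG6146 and 13.6% after JQ1. With ERCC scaling 0 of the 9 were called, with Ctbp1 at 0.29 and 0.26 and Rcor1 at 0.32 and 0.29. Library size scaling without TMM also called 0 of the 9 higher after JQ1, at smaller log2 fold changes. Ctbp1 then had 0.14 (adjusted p = 0.198) and Rcor1 0.16 (adjusted p = 0.196). After RG6146, Ctbp1 lost its call without RG6146 replicate 1 or 2 or without DMSO replicate 3, and Rcor1 without RG6146 replicate 2 or 3 or without DMSO replicate 2 (highest adjusted p = 0.105). After JQ1, Rcor1 lost its call without JQ1 replicate 1 or 3 or without DMSO replicate 2 (highest adjusted p = 0.0778). Of 9 SWI/SNF subunits, which belong to the other main class of remodelling complexes found with Ikaros, 1 fell and 0 rose after each compound, with medians of -0.02 after RG6146 and -0.06 after JQ1. That was Smarcc2, at -0.45 after RG6146 (adjusted p = 0.00313) and -0.59 after JQ1 (adjusted p = 3.29e-04), beside 13.5% and 15.4% of all tested genes called lower. It lost both calls with ERCC scaling, at log2 fold changes of -0.41 after RG6146 (adjusted p = 0.355) and -0.59 after JQ1 (adjusted p = 0.11). The ATPase gene Smarca4 had -0.14 after RG6146 and -0.06 after JQ1 and was not called.

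Crbn, which encodes cereblon, had 49.5, 50.9 and 39.6 CPM under RG6146, 42.1, 44.1 and 42.2 CPM under JQ1, and 54.5, 52.7 and 43.5 CPM under DMSO. The groups overlapped, with log2 fold changes of -0.11 after RG6146 (adjusted p = 0.550) and -0.23 after JQ1 (adjusted p = 0.153). Library size scaling without TMM gave -0.36 after JQ1, with a call (adjusted p = 0.0303). Of the 6 tested genes of the ligase, 3 rose after each compound, with list medians of 0.25 after RG6146 and 0.22 after JQ1, namely Dda1 (0.58 after RG6146 and 0.65 after JQ1), the RING subunit gene Rbx1 (0.36 and 0.31) and the adaptor gene Ddb1 (0.26 and 0.28). Over all tested genes 12.5% were higher after RG6146 and 13.6% after JQ1. With ERCC scaling 0 of the 6 were called at folds about as large, for Dda1 0.60 after RG6146 (adjusted p = 0.109) and 0.65 after JQ1 (adjusted p = 0.0695). Library size scaling called 1 of the 6 higher and 1 lower after JQ1. Rbx1 then had 0.18 (adjusted p = 0.175) and Ddb1 0.15 (adjusted p = 0.122). Ddb1 lost its call after RG6146 without RG6146 replicate 3 or DMSO replicate 3, and Rbx1 after JQ1 without JQ1 replicate 2 or DMSO replicate 2 (highest adjusted p = 0.0749). None of the 6 genes of casein kinase 2, which phosphorylates Ikaros, and of protein phosphatase 1, which dephosphorylates it, was called after either compound, with medians of 0.08 after RG6146 and 0.13 after JQ1.

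Lymphoid genes known as targets of Ikaros or Aiolos moved in both directions. Of 24 listed genes 17 could be tested, and 9 fell and 3 rose after RG6146, while 9 fell and 4 rose after JQ1, with medians of -0.65 and -0.76. Over all tested genes 13.5% fell and 12.5% rose after RG6146, and 15.4% fell and 13.6% rose after JQ1. With ERCC scaling 1 of the listed targets was called higher after JQ1 instead of 4. Il7r and Rag1 passed the count filter only through the DMSO libraries, and a gene that passes only there had to be lower elsewhere. Both are among the falls after each compound. Vpreb1 passed at low counts in every group, with 18 counts under RG6146, 31 under JQ1 and 25 under DMSO, and was not called. The lists were drawn up with earlier results of these data known, and binding by Ikaros was not measured here. Il7r, the interleukin 7 receptor gene, had 1.36, 2.52 and 2.26 CPM under RG6146, 2.096, 1.42 and 1.82 CPM under JQ1, and 33.0, 34.6 and 25.3 CPM under DMSO. It fell by 3.91 on the log2 scale after RG6146 and by 4.09 after JQ1.

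Rag1, a gene of the recombinase that assembles antigen receptor genes, had 10 counts under RG6146, 10 under JQ1 and 127 under DMSO, and fell by 3.57 after each compound (adjusted p = 6.43e-04 and 5.81e-04). Rag2, the partner of Rag1, had 5 counts under RG6146, 2 under JQ1 and 44 under DMSO and was not tested. Igll1, the surrogate light chain gene that Ikaros silences in maturing B cells, had 3 counts under RG6146, 7 under JQ1 and 4 under DMSO and was not tested either.

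Among the other falls, Blnk, an adaptor protein gene of the B cell receptor pathway, averaged 45.5 ± 5.56 CPM under RG6146, 40.0 ± 4.44 CPM under JQ1 and 93.2 ± 2.72 CPM under DMSO (SD, n = 3 each), a fall of 1.03 after RG6146 and of 1.22 after JQ1. Cd79b, a chain of the B cell receptor complex, fell by 1.139 after RG6146 and by 1.22 after JQ1. Dtx1, a regulator of Notch signalling, fell by 1.30 after RG6146 and by 1.04 after JQ1. Irf4, a transcription factor gene of B cell and plasma cell differentiation, fell by 1.10 after RG6146 and by 1.06 after JQ1.

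Myc, which Ikaros represses in pre-B cells, had 200, 177 and 207 CPM under RG6146, 128, 173 and 154 CPM under JQ1, and 125, 113 and 103 CPM under DMSO. It rose by 0.78 ± 0.107 after RG6146 (adjusted p = 5.91e-05) and by 0.42 ± 0.107 after JQ1 (adjusted p = 0.00818). Between the compounds Myc was not called (0.36, adjusted p = 0.9993). The counts do not separate the transgene from the resident gene, and the call after JQ1 was lost with library size scaling (0.29, adjusted p = 0.0592) and with ERCC scaling (0.43, adjusted p = 0.276). Txnip, an inhibitor of glucose uptake, rose by 1.04 after RG6146 and by 0.99 after JQ1. Foxo1, a transcription factor gene, rose by 0.36 after RG6146 (adjusted p = 0.0169) and by 0.47 after JQ1 (adjusted p = 0.00242). Its call after RG6146 ended without RG6146 replicate 2 (0.32, adjusted p = 0.0663) and without DMSO replicate 2 (0.28, adjusted p = 0.0865). The Foxo1 call after JQ1 ended with ERCC scaling (0.47, adjusted p = 0.239).

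Ccnd3, a G1 cyclin gene and the fourth rise after JQ1, had 0.51 after JQ1 (adjusted p = 0.0283) and 0.01 after RG6146. It was not called between the compounds (-0.49, adjusted p = 0.9993), and ERCC scaling ended its call after JQ1 (0.46, adjusted p = 0.235). Its call after JQ1 ended without JQ1 replicate 1 (0.37, adjusted p = 0.0730) or 2 (0.53, adjusted p = 0.0675) and without DMSO replicate 1 (0.44, adjusted p = 0.11) or 3 (0.44, adjusted p = 0.0951). Irf4, Txnip, Foxo1 and Ccnd3 were named after their values were seen.

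The fall of Ikzf1 and Ikzf3 stood among falls of other transcription factors of the B lineage. Of 22 listed genes 20 could be tested, and 13 fell and 1 rose after RG6146, while 14 fell and 1 rose after JQ1, with a median of -0.71 in both comparisons. Over all tested genes 13.5% fell after RG6146 and 15.4% after JQ1. The rise was Foxo1 in both. Foxo1, Irf4 and Bcl6, the last with too few counts to test, also stand in the list of targets, so the lists share these genes. Pou2f1, an octamer-binding factor gene, had 44.8, 43.9 and 42.6 CPM under RG6146, 44.4, 47.4 and 41.9 CPM under JQ1, and 129.8, 130.3 and 135.7 CPM under DMSO. Its fall of 1.59 after RG6146 and of 1.56 after JQ1 lay within the 95% interval of Ikzf1 in each comparison.

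Pou2f2, its B cell relative, fell by 1.33 after RG6146 and by 1.36 after JQ1, and Mef2c by 1.25 after RG6146 and 1.32 after JQ1. Ebf1, a factor that commits cells to the B lineage, fell by less, 0.64 after RG6146 and 0.80 after JQ1. Myb, named after its values were seen, fell by 2.07 after RG6146 and by 2.05 after JQ1, more than Ikzf1. Pax5 had -1.11 after RG6146 (adjusted p = 0.0799) and -0.63 after JQ1 (adjusted p = 0.293) at its low counts, and it passed the count filter only through the DMSO libraries. With ERCC scaling 8 genes of the list fell after RG6146 and 10 after JQ1, and 0 rose after either compound.

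**Figure D4:**
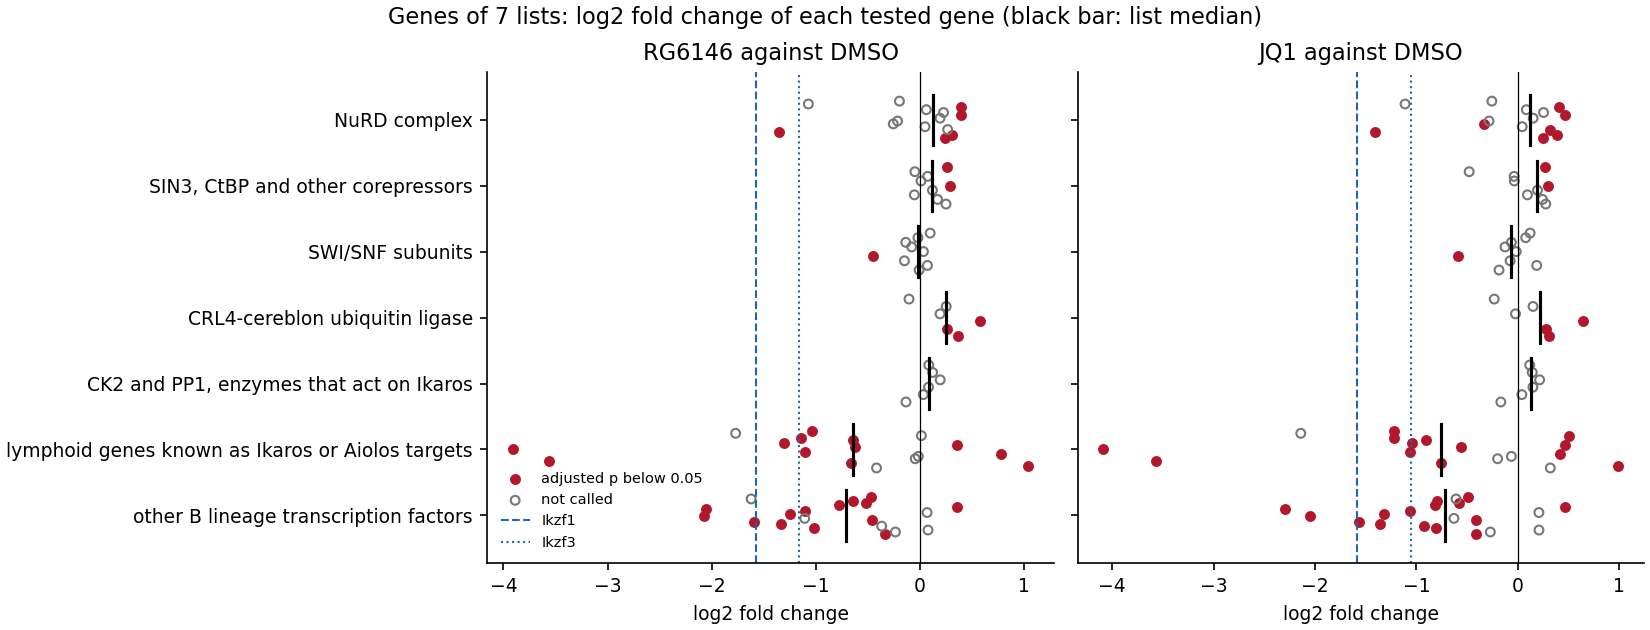
Log2 fold change (x axis) of every tested gene in 7 lists of Ikaros partners, modifying enzymes, known targets and B lineage factors, for RG6146 against DMSO at the left and JQ1 against DMSO at the right. Filled points passed the test, open points did not, black bars are list medians, and the dashed and dotted lines mark Ikzf1 and Ikzf3; the medians lie at -0.65 and -0.76 for targets and at -0.71 for B lineage factors.

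The genes whose profiles over the 9 libraries were closest to each tested member were found among 7405 others that averaged 10 CPM or more. The measure is the root mean square difference of log2(CPM + 1) after each gene was centred on its own mean. For Ikzf1 they were Pou2f1 (0.0907), the B cell gene Fcrla (0.116), Pou2f2 (0.120), the chromatin reader gene Zmynd8 (0.133) and the ubiquitin ligase gene Dtx3l (0.138), beside a median of 0.779 over all genes. For Ikzf3 they were Gpm6b (0.0854), Arhgap27 (0.0954), the receptor gene Tnfrsf13b (0.1002), the factor gene Rfx5 (0.101) of MHC class II expression and the phosphatase gene Inppl1 (0.104), beside a median of 0.569.

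For Ikzf5 they were Nudc (0.0441), Ssr2 (0.0456), the glycosylase gene Tdg (0.0518), Hp1bp3 (0.0519) and Rassf1 (0.0542), beside a median of 0.210. These likenesses describe 9 libraries of 1 clone and carry no test.

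**Figure D5:**
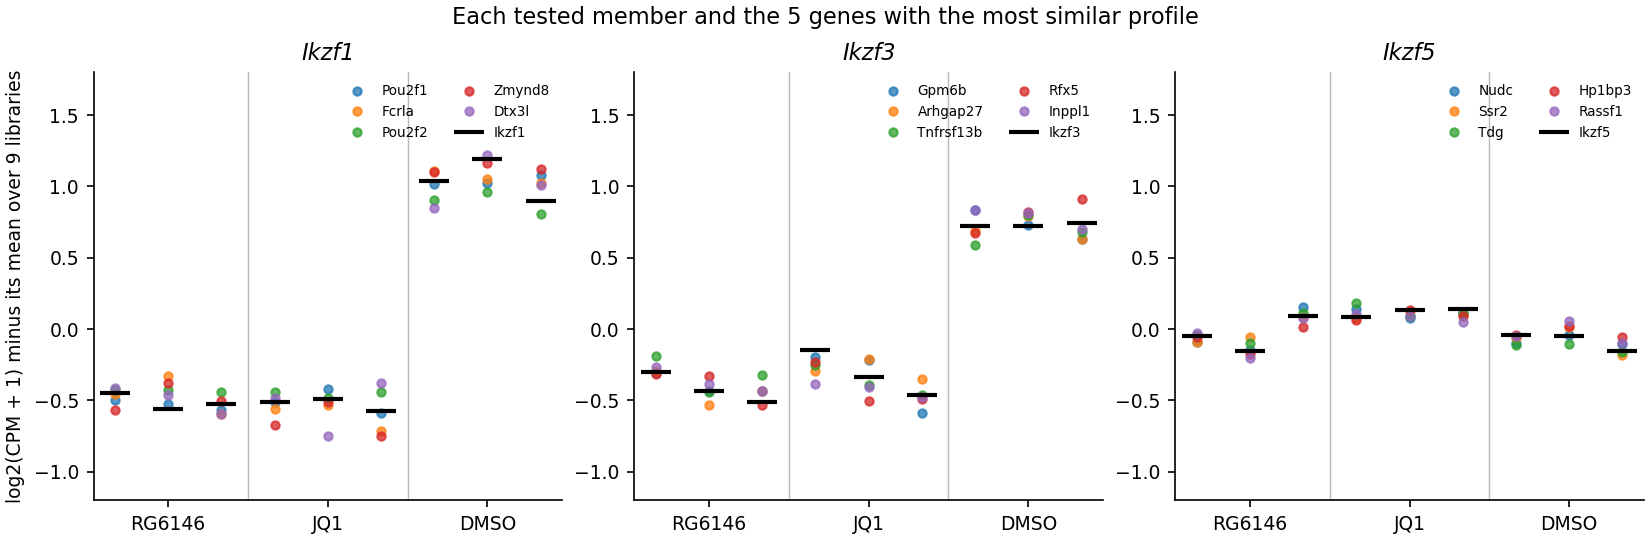
Centred log2(CPM + 1) values (y axis) of Ikzf1, Ikzf3 and Ikzf5 (black bars) and of the 5 genes closest to each (points) in the 9 libraries, with RG6146, JQ1 and DMSO from left to right. The profiles of Ikzf1 and Ikzf3 step up in all 3 DMSO libraries, and that of Ikzf5 does not.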

How the data were processed

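The authors deposited raw counts of reads per gene with 92 ERCC spike-in rows. Per the submitters' processing notes, the tools were HISAT2 2.1.0, cutadapt 1.7, FastQC 0.11.5, bcl2fastq 2.17.1.14, limma and Subread's featureCounts, with the build mm10. The treatment of strand and of multiply matching reads is not given in the sources used here. Libraries were made with the QuantSeq kit, per the labels' protocols, and give about 1 read per transcript. Symbols and positions came from GENCODE M21.

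Counts of the 9 libraries, without ERCC rows, went into edgeR 4.0.16 under R 4.3.3. The filter was filterByExpr (minimum count 10). Libraries were scaled by TMM, genes fitted by a robust quasi-likelihood model on the group alone and tested by the quasi-likelihood F-test with Benjamini-Hochberg adjustment over all 11002 tested genes. Errors of log2 fold changes are standard errors, and 95% Wald intervals are centred on fold changes computed with no prior count. Sums of marker levels are CPM without TMM. Ratios used counts plus 0.5. Steps were tested on simulated data.

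The members and the 7 lists were chosen with earlier results of these data known. One listed gene is not reported here and was left out of its list. The rule named the 5 members, up to 4 genes per list with the smallest p, Crbn, Chd4, Igll1, Myc, Il7r and Rag1, the neighbouring genes and the 5 most similar profiles. Alternatives were other scalings, filters, 2 groups only, a replicate block, DESeq2 1.42.0 and leaving out each library.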

Additional observations from a re-analysis of the deposited data

How the results depend on the processing

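Over 18 alternatives each, Ikzf1 stayed between -1.68 and -1.49 after RG6146 and between -1.72 and -1.51 after JQ1, and Ikzf3 between -1.27 and -1.11 and between -1.19 and -0.98, and all were called (highest adjusted p = 2.96e-04, for Ikzf3 after JQ1). Ikzf5 lay between -0.06 and 0.11 after RG6146 and between 0.07 and 0.22 after JQ1 and was called in 0 alternatives. After RG6146 it turned to -0.062 with library size scaling, and it ran from -0.017 (without RG6146 replicate 3) to 0.11 when single libraries were left out. Between the compounds Ikzf1 then ran from -0.019 (without RG6146 replicate 1) to 0.035.

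ERCC scaling called 1082 genes after RG6146, 1196 after JQ1 and 4 between the compounds, and DESeq2 called 1902 after RG6146. With the replicate block added, ERCC scaling called 2604 genes after RG6146 and 2829 after JQ1. Between the compounds 17 genes were called without a filter, and 0 among genes averaging 10 CPM or more, with 2 groups only or with the replicate block. Leaving out single libraries gave 2237 to 2973 genes after RG6146, 2492 to 3248 after JQ1 and 0 to 2 between the compounds.

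Over all tested genes, deviations from the group means correlated at -0.0695 to 0.107 between libraries with the same replicate number. The ERCC share of counts, however, fell with the replicate number in every group. For replicates 1 to 3 it was 1.35, 1.17 and 0.972% under RG6146 and 1.37, 1.22 and 0.958% under JQ1. Under DMSO it was 1.51, 1.18 and 1.13%. Whether the numbers mark a shared batch was not tested. The replicate block called 2790 genes after RG6146 and 3093 after JQ1, with Ikzf1 at -1.57 and -1.58, Ikzf3 at -1.17 and -1.06 and Ikzf5 at 0.05 and 0.20. Under the block Ccnd3 lost its call after JQ1 (0.50, adjusted p = 0.0846) and Mta2 gained one after RG6146 (0.26, adjusted p = 0.0489). Pairing the count ratios by number gave the smallest possible p, 0.25. Without single libraries the Ikzf1 to Ikzf3 ratio differed from DMSO by -0.48 to -0.32 after RG6146 and -0.60 to -0.44 after JQ1, and the Ikzf1 to Ikzf5 ratio by -1.65 to -1.54 and -1.82 to -1.73.

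Small values turned sign. After RG6146, library size scaling gave -0.10 for Mien1 and -0.096 for Ccnd3, and the 10 CPM minimum gave -0.029 and -0.022. Without single libraries Mien1 ran from -0.072 to 0.091, Ccnd3 from -0.099 to 0.15 and Crbn from -0.20 to 0.0022. After JQ1, library size scaling gave Mien1 -0.051 and Rps26 -0.0066. Of the other named genes' values under alternatives, 682 stood on the same side of the threshold after RG6146, 45 lost and 11 gained a call, against 683, 55 and 8 after JQ1. The cause was not tested. Depth limits Ikzf2 and Ikzf4, which had 0 to 9 counts per group.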
